A study of Mus musculus with 10 samples.

Results

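The genes of antigen presentation by major histocompatibility complex (MHC) class II were examined in mouse distal colorectum with and without the growth factor gene Pdgfc. The members were 10 genes, H2-Aa, H2-Ab1, H2-Eb1, Cd74, H2-DMa, H2-DMb1, H2-Oa, Ciita, Ctss and Ifi30, and every probe set that the platform annotation gives to 1 of them alone was taken. That found 17 of 45037 non-control probe sets, for 9 of the 10 genes, among 18193 genes with a probe set of their own. H2-DMb1 had only 2 probe sets, both shared with H2-DMb2, so no value is given for it, and 1 further probe set shared by Ifi30 and Pik3r2 was left out for the same reason. Tissue was taken about 1 cm above the anus of C57BL/6J mice. There were 2 arrays of unirradiated Pdgfc+/+ mice (wild type), 2 of unirradiated Pdgfc-/- mice (knockout), and 3 of each genotype taken 8 weeks after local γ-irradiation with 25 Gy (2.14 Gy/min). The labels call the samples biological replicates, so p-values measure the spread between these samples, and the number of arrays limits the precision. How the knockout allele was made, and the age and sex of the mice, are not given in the sources used here.

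MHC class II molecules are pairs of an alpha and a beta chain on the surface of antigen-presenting cells that show peptides to CD4+ T cells. The invariant chain Cd74 escorts the new pair to the endosome, where proteases such as cathepsin S (Ctss) cut it and the thiol reductase Ifi30 opens disulphide bonds of antigens, while H2-DM exchanges the remaining fragment for a peptide and H2-O restrains H2-DM. Ciita is the coactivator that switches the class II genes on, through the factors Rfx5, Rfxap, Rfxank, NF-Y and CREB bound at their promoters. In dendritic cells, macrophages and B cells the genes are on as part of cell identity, and in intestinal epithelium interferon gamma can switch them on through Ciita.

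Promoters are shown because the class II genes moved together in these data and are known to share promoter elements. Windows for 7 of the 10 member genes were taken from the RefSeq promoter table (GRCm38.p6). Any member entry on the chromosome of Cd74 was left out, and H2-Ab1, Cd74 and Ciita have no window here. The lines below give the 110 bases before the annotated transcription start, 5′ to 3′ on the gene's strand, for H2-Eb1 (chr17:34305757-34305866, plus strand), H2-Aa (chr17:34287824-34287933, minus strand), H2-Oa (chr17:34092269-34092378, plus strand), Ctss (chr3:95526676-95526785, plus strand) and Ifi30 (chr8:70766664-70766773, minus strand). Capitals mark matches to any of 4 short motifs searched on both strands: the X core ACNGATG, the X2 core TGACG, the Y box GATTGG and the interferon-stimulated response element, searched as TTTC, 2 bases of any kind and TTTC.
H2-Eb1: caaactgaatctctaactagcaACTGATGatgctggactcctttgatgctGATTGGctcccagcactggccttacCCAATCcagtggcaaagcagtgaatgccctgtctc
H2-Aa: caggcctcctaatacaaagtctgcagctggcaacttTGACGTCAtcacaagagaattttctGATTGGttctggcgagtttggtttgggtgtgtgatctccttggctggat
H2-Oa: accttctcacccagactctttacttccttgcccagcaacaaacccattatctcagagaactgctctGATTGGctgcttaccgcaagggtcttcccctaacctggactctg
Ctss: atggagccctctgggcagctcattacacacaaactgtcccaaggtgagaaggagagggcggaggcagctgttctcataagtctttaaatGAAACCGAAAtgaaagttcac
Ifi30: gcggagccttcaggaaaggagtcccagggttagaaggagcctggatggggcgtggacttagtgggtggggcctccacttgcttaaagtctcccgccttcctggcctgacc

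In H2-Eb1 the X core began 88 bases and the forward Y box 60 bases before the start, with a second Y box on the other strand 35 bases before it. In H2-Aa the X2 core lay on both strands of an overlapping run at 74 and 71 bases, and the Y box at 49. H2-Oa held a Y box alone, at 44 bases. The Ctss window held only the interferon-stimulated response element, on the reverse strand at 21 bases, and the Ifi30 window and both annotated H2-DMa windows held no match to these letters. Of 32851 promoter windows of this length, 3.53% held the X core, 11.1% the X2 core, 9.25% the Y box and 1.11% the response element. An X or X2 core 20 to 35 bases before a Y box was present in 30 windows, or 0.091%, of 29 genes, and 3 of those genes were members: H2-Aa with starts 25 bases apart, H2-Eb1 with 28 and H2-DMb1 with 29. That spacing was chosen after these windows were seen, so the share is a description, and a match is not evidence of a bound factor.

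Log2 array medians ranged from 6.64 to 7.18. Tests covered the 25883 probe sets that exceeded the median on 2 or more arrays. Both Pdgfc probe sets, whose position relative to the deletion is not known here, were lower on each knockout array than on any wild-type array with the same treatment. Transcripts of sex chromosomes separated the arrays: all 4 unirradiated arrays and irradiated knockout replicates 2 and 3 had the male pattern, and all 3 irradiated wild-type arrays and irradiated knockout replicate 1 the female one. The comparison of genotypes without irradiation was therefore within 1 sex, while sex and irradiation cannot be told apart in wild type. The 3′ minus 5′ signal of the Gapdh control, a measure of RNA integrity, lay at -0.54 to -0.35 on irradiated and at -0.32 to 0.03 on unirradiated arrays. The unirradiated genotypes overlapped in it, and its part in the effects of irradiation was not tested.

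The first comparison asked how class II genes differ between genotypes in tissue that had not been irradiated. The class II chains H2-Aa, H2-Ab1 and H2-Eb1, the invariant chain, H2-DMa and 2 of 3 Ciita probe sets were 4.16- to 20.7-fold lower in the knockout. H2-Oa, the third Ciita probe set, Ctss and Ifi30 did not pass the test. Of the 16 member probe sets tested with limma at an adjusted p of 0.05, 12 were lower and 0 higher in the knockout, beside 0.676% of all probe sets called lower and 0.390% called higher. The median difference (knockout minus wild type, log2) was -2.95 over the 16 and 0.09 over all probe sets tested. Groups did not overlap for 14 lower member probe sets, beside 17.3% of all, and for 1 higher one, beside 29.9%. In whole tissue, fewer cells of a type and less RNA per cell cannot be told apart. The seventeenth probe set, a second one for H2-DMa, was above the median on 0 arrays and was not tested: it read 4.89 and 6.48 in unirradiated wild type, 1.86 and 2.80 in unirradiated knockout, and 5.95 to 6.86 on the irradiated arrays.

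**Figure D1:**
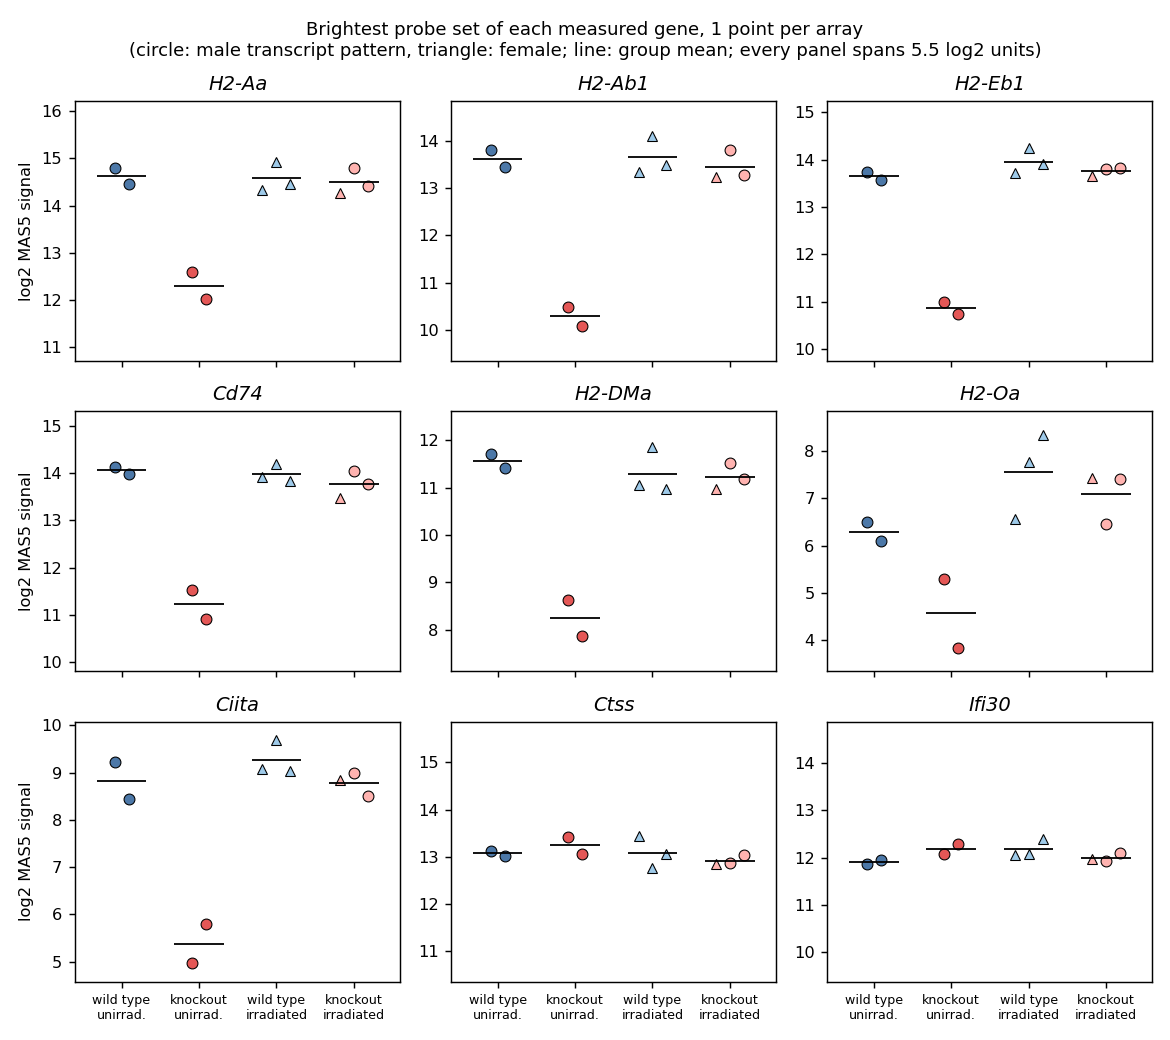
Log2 MAS5 signal of the brightest probe set of each of the 9 measured genes on each of the 10 arrays, by group. Points are arrays (circles male, triangles female transcript pattern) and lines are group means, and only the unirradiated knockout stands low for the class II genes, with H2-Eb1 at 10.99 and 10.74 there and at 13.57 to 14.25 elsewhere.

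Among the chains, H2-Eb1 encodes the beta chain of the I-E molecule. Its log2 signal was 13.73 and 13.57 in unirradiated wild type, 10.99 and 10.74 in unirradiated knockout, 13.71, 14.25 and 13.90 in irradiated wild type, and 13.66, 13.81 and 13.83 in irradiated knockout. The unirradiated knockout arrays stood apart below the other 8, which overlapped. The fitted difference without irradiation was -2.78 ± 0.18 (SE), 6.89-fold, with a limma adjusted p of 1.39e-04. Its partner, the alpha chain gene H2-Ea, is not functional in C57BL/6 mice, and its 3 probe sets stayed below the array median on all 10 arrays.

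H2-Ab1 and H2-Aa encode the beta and alpha chains of the I-A molecule, the class II molecule that C57BL/6 mice display. The H2-Ab1 probe set with the highest mean read 13.80 and 13.44 in unirradiated wild type, 10.49 and 10.08 in unirradiated knockout, 13.35, 14.11 and 13.49 in irradiated wild type, and 13.24, 13.80 and 13.29 in irradiated knockout. It was 10.1-fold lower in the unirradiated knockout, at -3.33 ± 0.28 on the log2 scale (limma adjusted p = 5.39e-04). The other H2-Ab1 probe sets differed by -4.10, which is 17.2-fold, and by -4.37 ± 0.23, which is 20.7-fold (limma adjusted p = 4.02e-05). By p these ranked 3 and 2 among all probe sets tested in this comparison. So the 3 probe sets of the gene shared a direction and differed in size by about 1 log2 unit.

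For H2-Aa the probe set with the highest mean read 14.80 and 14.46 in unirradiated wild type, 12.59 and 12.01 in unirradiated knockout, 14.34, 14.92 and 14.46 in irradiated wild type, and 14.27, 14.80 and 14.41 in irradiated knockout. Again the unirradiated knockout alone was low. The difference was -2.32 ± 0.26, 5.00-fold (limma adjusted p = 0.0033), and the other 3 probe sets lay between -3.10 and -2.81. In both I-A genes the brightest probe set showed the smallest fall of its gene. The dimmest H2-Aa probe set lost its call without unirradiated wild-type replicate 2 (adjusted p = 0.0670) or unirradiated knockout replicate 2 (0.0645).

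Cd74, the invariant chain, read 14.13 and 13.99 in unirradiated wild type, 11.54 and 10.92 in unirradiated knockout, 13.93, 14.19 and 13.83 in irradiated wild type, and 13.48, 14.04 and 13.76 in irradiated knockout. It was 7.10-fold lower in the unirradiated knockout, at -2.83 ± 0.23 (limma adjusted p = 4.74e-04). H2-DMa, a chain of the peptide exchanger, read 11.72 and 11.43 in unirradiated wild type, 8.63 and 7.88 in unirradiated knockout, 11.05, 11.86 and 10.97 in irradiated wild type, and 10.97, 11.53 and 11.18 in irradiated knockout. Its difference was -3.32 ± 0.34, 9.99-fold (limma adjusted p = 0.0017). Both genes repeated the order of the chains, with only the unirradiated knockout set apart.

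H2-Oa encodes the alpha chain of the H2-DM inhibitor, which is known mainly from B cells and some dendritic cells, and was dim. Its signal was 6.50 and 6.10 in unirradiated wild type, 5.31 and 3.84 in unirradiated knockout, 6.57, 7.77 and 8.35 in irradiated wild type, and 7.42, 6.46 and 7.41 in irradiated knockout. The unirradiated genotypes did not overlap, but the difference of -1.73 ± 0.66 did not pass the test (limma adjusted p = 0.2377). Its partner H2-Ob, not a member, differed by -0.62 and did not pass either.

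Ciita, the coactivator, had 3 probe sets. The first read 9.22 and 8.43 in unirradiated wild type, 4.97 and 5.79 in unirradiated knockout, 9.08, 9.68 and 9.04 in irradiated wild type, and 8.85, 8.98 and 8.51 in irradiated knockout. It was 10.9-fold lower in the unirradiated knockout, at -3.45 ± 0.36 (limma adjusted p = 0.0021), with both knockout arrays below their array medians, where MAS5 signals spread widely. The size of this difference therefore depends on how low signals are treated: with a pseudocount of 64 added to the linear signal it was -2.29, and it passed in all 22 alternatives run. The second fell by 2.06 (adjusted p = 0.0161), a call that was lost without unirradiated wild-type replicate 1 (adjusted p = 0.0620), unirradiated knockout replicate 1 (0.0848) or replicate 2 (0.0914). The third read 1.23 and 5.55 in the unirradiated knockout and 6.53 to 8.07 elsewhere. Its difference of -4.34 ± 1.08 did not pass (adjusted p = 0.0924). It was -2.19 (adjusted p = 0.2649) without unirradiated knockout replicate 1 and -6.50 (0.0040) without replicate 2, and it passed in 1 of 19 alternatives.

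Ctss and Ifi30 did not follow. Ctss read 13.13 and 13.03 in unirradiated wild type, 13.42 and 13.06 in unirradiated knockout, 13.45, 12.77 and 13.05 in irradiated wild type, and 12.85, 12.87 and 13.04 in irradiated knockout. All 4 groups lay within 1 log2 unit. The genotype difference without irradiation was 0.17 (95% interval -0.30 to 0.64), which bounds the ratio of knockout to wild type between 0.810 and 1.557. Ifi30 read 11.85 and 11.94 in unirradiated wild type, 12.07 and 12.30 in unirradiated knockout, 12.05, 12.08 and 12.39 in irradiated wild type, and 11.96, 11.92 and 12.09 in irradiated knockout. Its difference was 0.28 (95% interval -0.08 to 0.64), a ratio between 0.948 and 1.558, with the knockout arrays slightly above the wild-type ones. The limma adjusted p was 0.7510 for Ctss and 0.4214 for Ifi30, and both intervals exclude a fall of the size seen in the chains.

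When single arrays were left out, 11 or 12 member probe sets were called lower. The number of all probe sets called in this comparison moved more, from 276 to 102 without unirradiated knockout replicate 1, 101 without replicate 2 and 450 without irradiated knockout replicate 2.

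The next comparisons asked what irradiation did to the same genes in each genotype. In wild type, 0 of the 16 member probe sets passed the test in either direction (limma; also 0 at an unadjusted p under 0.05), beside 18.8% of all probe sets called. Their median difference was -0.0045, beside 0.04 over all probe sets. Groups did not overlap for 2 of them, Ifi30 and H2-Oa, both higher after irradiation, beside 27.7% of all. H2-Oa differed by 1.27 ± 0.61 (limma adjusted p = 0.1750), and the fitted differences of H2-Eb1, Cd74 and H2-Ab1 (brightest probe set) were 0.30, -0.07 and 0.03.

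In the knockout, 14 of the 16 were higher after irradiation and 0 lower, beside 10.9% of all probe sets called higher and 9.01% called lower. The median difference was 2.87, beside -0.06 over all. Groups did not overlap for these 14, beside 23.8% of all, and for Ctss, which was lower after irradiation on every array, beside 28.2%, at -0.33 (95% interval -0.76 to 0.10). H2-Ab1 rose by 3.15, 4.01 and 4.18 in its 3 probe sets, H2-Aa by 2.19 to 2.94, H2-Eb1 by 2.90 ± 0.17, Cd74 by 2.53 ± 0.21, H2-DMa by 2.97 ± 0.31 and Ciita by 3.40, 1.92 and 3.82. The limma adjusted p was 2.40e-05 for H2-Eb1 and 1.06e-04 for Cd74. This comparison has the unirradiated knockout arrays in common with the genotype comparison above, so both sets of values rest on the same 2 low arrays.

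H2-Oa rose by 2.52 ± 0.61 (limma adjusted p = 0.0178) and was the least steady of these calls, together with the third Ciita probe set. With a pseudocount of 64 their rises were 1.17 and 1.34, still past the threshold. H2-Oa did not pass without unirradiated knockout replicate 2 (1.79, adjusted p = 0.1336), irradiated knockout replicate 1 (0.0603) or replicate 3 (0.0546). The third Ciita probe set did not pass without unirradiated knockout replicate 1 (1.66, adjusted p = 0.1127) or irradiated knockout replicate 1 (0.0579). With the sex pattern as a covariate the knockout effect rests on irradiated replicates 2 and 3, male like the unirradiated arrays. It then stood at 3.25 for the brightest H2-Ab1 probe set, 2.95 for H2-Eb1, 2.67 for Cd74 and 3.10 for H2-DMa, all past the threshold, while H2-Oa (adjusted p = 0.0598) and the third Ciita probe set (0.0601) were not.

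After irradiation the genotypes were compared again. Of the 16 member probe sets 0 passed (limma; also 0 at an unadjusted p under 0.05), beside 0% of all probe sets called, of which 1019 had an unadjusted p under 0.05. The members' differences lay between -0.48 (Ciita, first probe set) and 0.10 (dimmest H2-Aa probe set), with a median of -0.18. For H2-Eb1 the 95% interval was -0.52 to 0.14 and for Cd74 -0.65 to 0.20, so a fall of the size seen without irradiation lay outside both. Groups did not overlap for 1 member probe set, that first one of Ciita, lower in the knockout, beside 4.82% of all. Sex was unevenly split between these groups.

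**Figure D2:**
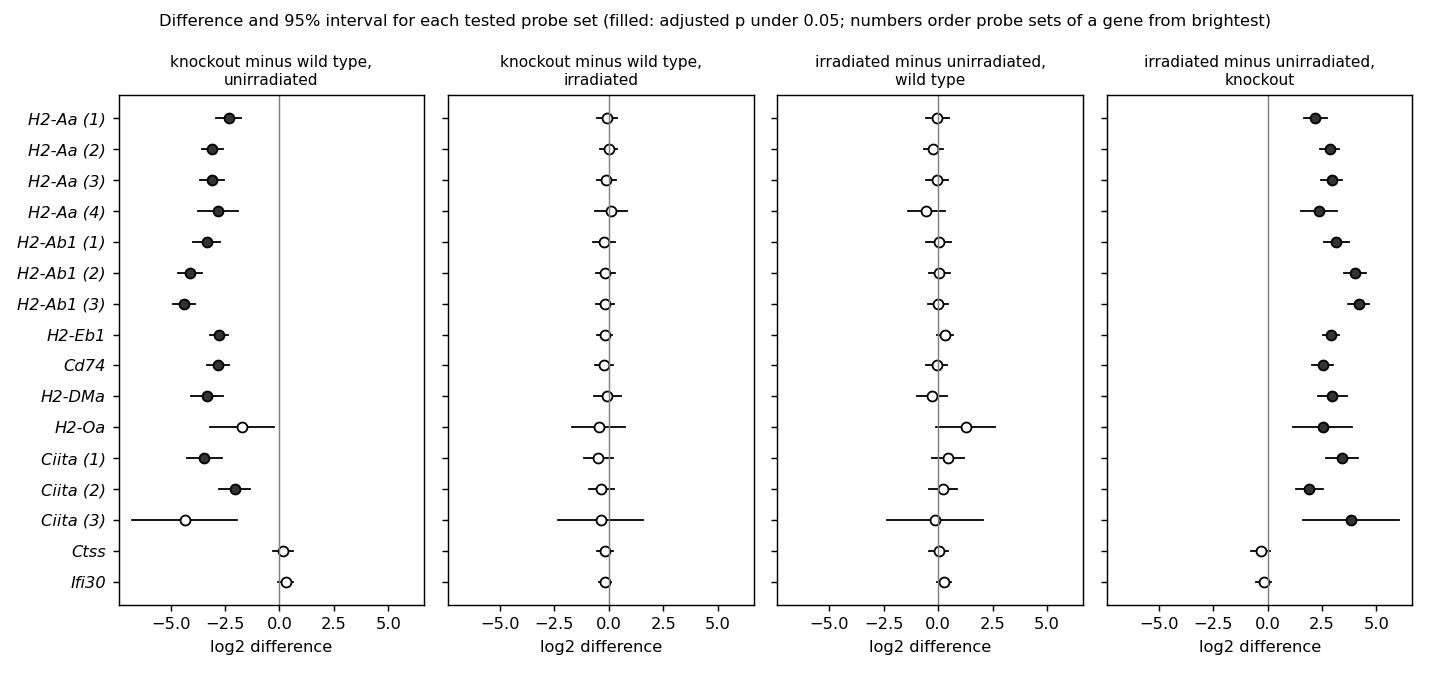
Fitted log2 differences with 95% intervals for the member probe sets in the 4 comparisons of groups. The class II genes and Ciita lie left of 0 for genotype without irradiation and right of 0 for irradiation in the knockout, while irradiation in wild type and genotype after irradiation lie around 0.

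The difference between the irradiation effects of the genotypes (knockout minus wild type) was tested as an interaction. It was called higher for 10 member probe sets, beside 0.147% of all probe sets, and lower for 0, beside 0.0425%. H2-Ab1 reached 4.20 ± 0.30 (limma adjusted p = 7.21e-04), H2-Eb1 2.59 ± 0.24 (0.0031), Cd74 2.60 ± 0.30 (0.0097), H2-DMa 3.25 ± 0.43 (0.0200) and the first Ciita probe set 2.96 ± 0.47 (0.0453). H2-Oa (1.26), Ctss (-0.34) and Ifi30 (-0.46) did not pass. The count fell to 5 without unirradiated wild-type replicate 1, stayed between 7 and 10 without any other array, and was 4 with the sex pattern as a covariate. H2-Eb1 passed in all 21 alternatives run, the brightest H2-Aa probe set in 9 of 21 and the first Ciita probe set in 2 of 21. Only the irradiated knockout group held both sex patterns, so the sex covariate rests on its replicate 1, the female-pattern array. The unirradiated knockout arrays enter the interaction test too.

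Genes beside the members were read from lists of the class II pathway, each gene by its brightest probe set. The 7 factors bound at class II promoters did not pass in any comparison: without irradiation Rfx5 differed by -0.21, Rfxap by 0.13 and Rfxank by 0.52. Of 9 other lysosomal proteases and inhibitors, 0 differed between unirradiated genotypes. With irradiation 6 of them rose in wild type, and 5 rose and 1 fell in the knockout. Of 6 tested genes of class II turnover and costimulation, 0 differed between unirradiated genotypes. With irradiation 4 of these rose in wild type and 3 in the knockout. Of all probe sets, 12.3% were called higher in wild type and 10.9% in the knockout, where 9.01% were called lower. Between unirradiated genotypes 0.676% of all were called lower and 0.390% higher, so nothing is read from the counts of 0. Of the turnover and costimulation list, Marchf1, Cd274 and Cd86 were lower in the unirradiated knockout without overlap, beside 17.3% of all probe sets. Marchf1, a ubiquitin ligase that removes class II from the surface, differed by -2.10 (limma adjusted p = 0.2175). The checkpoint ligand Cd274 differed by -1.60 (0.0943) and the costimulatory ligand Cd86 by -1.14 (0.2513). Marchf1 and Cd86 lay below the array median on every unirradiated array, so the sizes of their differences are uncertain. Marchf1 read 1.89 and 4.47 in the unirradiated knockout. Cd83 went the other way, with means of 6.56 in unirradiated wild type and 7.45 in unirradiated knockout. Cd40 (5.86 and 6.30) and Icosl (8.26 and 8.47) were also higher in the knockout.

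The interferon gamma pathway was read from 2 lists. Of 8 tested signalling genes, 0 differed between the unirradiated genotypes in limma, beside 0.676% of all probe sets called lower and 0.390% higher. Socs1, a feedback inhibitor, was lowest at -1.70 (limma adjusted p = 0.1271). Irf1, a transcription factor that interferon gamma induces, read 13.32 and 12.58 in unirradiated wild type and 11.54 and 12.01 in unirradiated knockout, without overlap, and its difference of -1.17 did not pass (limma adjusted p = 0.0768). Ifng itself lay below the median on all 10 arrays and was not tested, at 5.23 and 4.64 in unirradiated wild type, 2.12 and 1.75 in unirradiated knockout, and 5.23 to 6.06 on irradiated arrays.

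Of 15 tested targets of interferon gamma, 14 were lower in the unirradiated knockout, beside 0.676% of all probe sets, with a median difference of -2.69. With irradiation 15 rose in the knockout, beside 10.9% of all, with a median of 3.14. In wild type 4 rose with irradiation, beside 12.3% of all, and 0 fell, beside 6.50%, with a median of 0.59. After irradiation 0 differed between genotypes in limma, beside 0% of all. Cxcl9, a chemokine for T cells, read 7.03 and 7.69 in unirradiated wild type, 2.96 and 3.48 in unirradiated knockout, 10.43, 10.80 and 10.42 in irradiated wild type, and 9.86, 9.51 and 10.09 in irradiated knockout. Its genotype difference without irradiation was -4.14 (limma adjusted p = 2.28e-04), and it rose by 3.19 with irradiation in wild type and by 6.60 in the knockout. Both unirradiated knockout arrays lay below their array medians for Cxcl9, where MAS5 signals spread widely. The sizes -4.14 and 6.60 are therefore uncertain. Unlike the class II genes, Cxcl9 rose in both genotypes. The guanylate-binding GTPases Gbp2 and Gbp7 differed by -2.32 (limma adjusted p = 0.0386) and -1.94 (0.0064). The chemokine Cxcl10 differed by -3.23 (0.0350), also with both unirradiated knockout arrays below their medians. Cxcl11, at -1.36 (0.3159), was the target that did not pass.

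**Figure D3:**
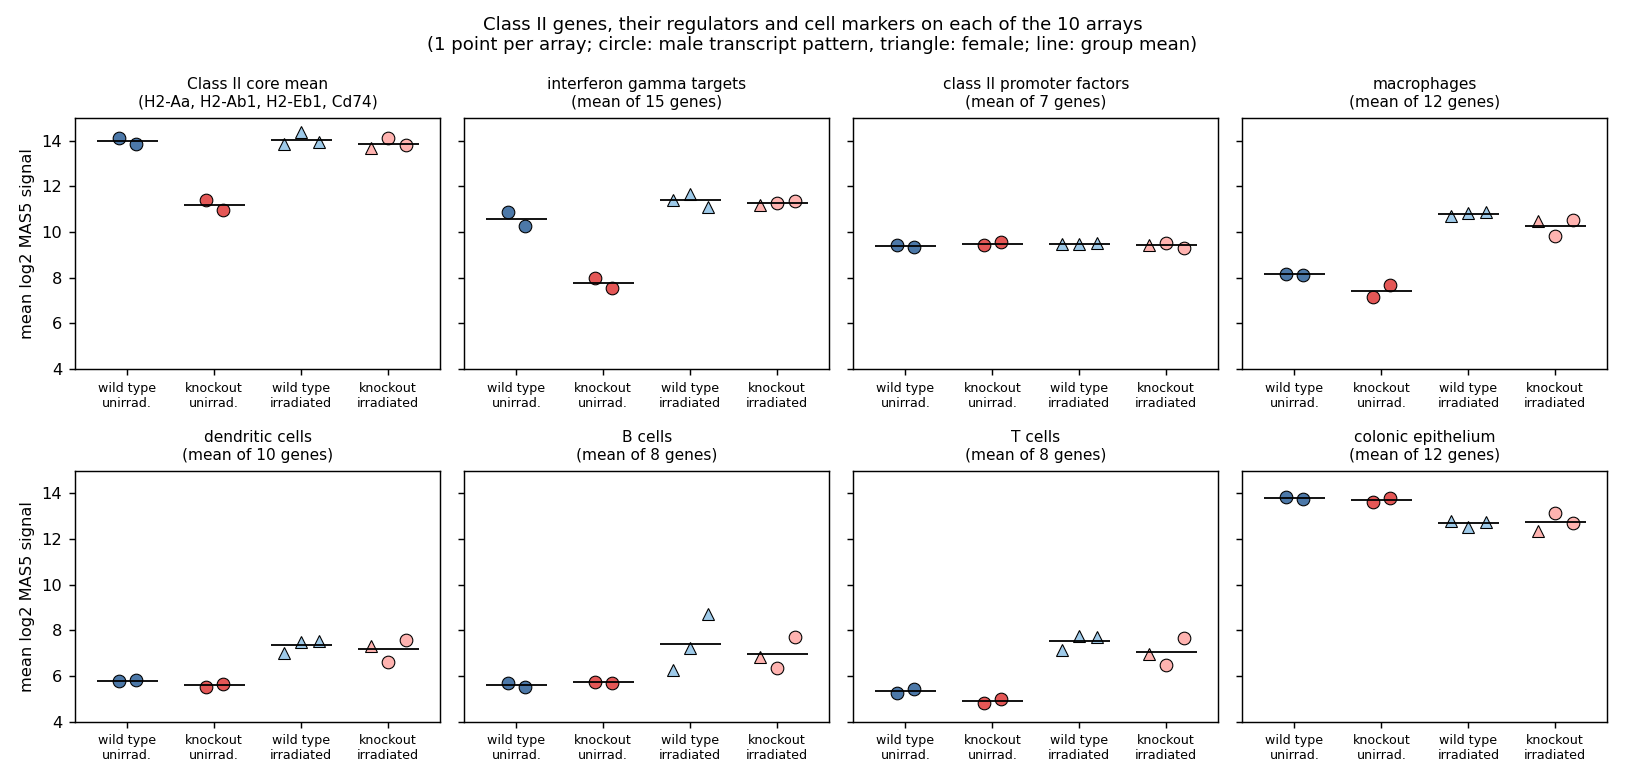
Mean log2 signal of the class II core genes, of interferon gamma targets, of class II promoter factors and of markers of 5 cell types on each of the 10 arrays; circles have the male and triangles the female transcript pattern, and lines are group means. The unirradiated knockout is low for the class II core (11.40 and 10.94) and the interferon gamma targets, whose mean there (7.76) compares with 10.55 in unirradiated wild type, while the means of the macrophage, dendritic cell, B cell and T cell markers are higher on the irradiated arrays of both genotypes.

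Markers of the cells that can carry class II were set beside these values. Between unirradiated genotypes, 0 of 8 tested dendritic cell markers, 0 of 12 macrophage markers and 0 of 5 B cell markers passed in limma. Of T cell and colonic epithelium markers, 0 of 6 and 0 of 12 passed. Of all probe sets, 0.676% were called lower and 0.390% higher there, so nothing is read from these counts of 0. Median differences of these lists, in that order, were -0.17, -0.82, -0.11, -0.45 and -0.15. The macrophage marker Cd163 stood at -2.64 (limma adjusted p = 0.0505) and the T cell marker Cd3d at -1.93 (0.1381). Most macrophage markers were lower in the unirradiated knockout without overlap. Means in the unirradiated knockout and wild type were 9.54 and 10.35 for Csf1r and 6.99 and 8.03 for Adgre1. For Mrc1 they were 8.39 and 9.145, for the dim Fcgr1 4.71 and 5.79, and for the T cell marker Cd3g 4.865 and 6.56. Some markers of these lists did not fall. Mertk was higher in the unirradiated knockout (10.32 and 10.30) than in unirradiated wild type (9.60 and 8.04), without overlap. Means in unirradiated knockout and wild type were 6.27 and 6.23 for Cx3cr1, 3.86 and 3.10 for the dim Cd2, and 7.11 and 7.135 for Cd8a. The mean over the 12 genes of the macrophage list lay at 8.13 to 8.17 in unirradiated wild type and 7.14 to 7.69 in unirradiated knockout. That of the dendritic cell list lay at 5.77 to 5.82 and 5.53 to 5.66. The B cell mean lay at 5.52 to 5.69 and 5.71 to 5.74, and the T cell mean at 5.27 to 5.44 and 4.83 to 4.99. None of these ranges overlapped between genotypes, and that of B cells was higher in the knockout. Among single probe sets, 17.3% were lower and 29.9% higher without overlap in this comparison. Means of the colonic epithelium list overlapped, at 13.74 to 13.84 and 13.62 to 13.79. In unirradiated wild type, 7 of 10 dendritic cell genes, 7 of 8 B cell genes and 7 of 8 T cell genes were below the array median. The part of the macrophage and T cell markers in the class II difference was not tested.

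With irradiation in wild type, 11 of 12 macrophage markers, 2 of 8 dendritic cell markers, 2 of 5 B cell markers and 5 of 6 T cell markers rose, and 6 of 12 colonic epithelium markers fell, beside 12.3% of all probe sets called higher and 6.50% called lower. The dendritic and B cell counts rest on 2 calls each, and nothing is read from them. The macrophage mean was 10.70 to 10.85 in irradiated wild type and 9.83 to 10.54 in irradiated knockout, above every unirradiated array. The mean of H2-Aa, H2-Ab1, H2-Eb1 and Cd74 was 14.11 and 13.86 in unirradiated wild type and 13.83, 14.37 and 13.92 after irradiation. So class II transcripts did not change past the threshold on arrays where macrophage and T cell markers rose and epithelial markers fell. The part of these shifts in the class II values was not tested.

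Among all genes outside the members, the 8 whose log2 signal was most like that mean over the 10 arrays were Psmb9 (Pearson r = 0.988), Psmb8 (0.986), Nlrc5 (0.986), Psme1 (0.981), Plaat3 (0.975), Plet1 (0.974), Ada (0.972) and Iigp1 (0.972). The points share the same 10 arrays and 2 of them set the range, so r is a description. Psmb8, Psmb9 and Psme1 encode parts of the immunoproteasome and its activator, Nlrc5 is the class I counterpart of Ciita, and Iigp1 is an interferon-induced GTPase. Without irradiation Nlrc5 differed by -3.50, Psmb9 by -2.55, Psmb8 by -2.37, Iigp1 by -3.97 and Psme1 by -0.84. Plet1, which encodes a surface protein, differed most, by -7.24, and read 13.99 and 12.98 in unirradiated wild type against 7.16 and 5.34 in unirradiated knockout. Of the members themselves, H2-DMa reached 0.992, the Ciita probe sets 0.807 to 0.974 and H2-Oa 0.822, while Ctss stood at -0.423 and Ifi30 at -0.398.

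Most class II genes lie side by side on mouse chromosome 17, so the neighbours were read in gene order (GRCm38.p6). Between H2-Oa and H2-DMa lies Brd2, a chromatin reader, which differed by 0.01 between unirradiated genotypes. On the other side of H2-DMa and H2-DMb2, the class I pathway genes Psmb9 (-2.55), Tap1 (-2.69) and Psmb8 (-2.37) were lower, and Tap2 (-0.99) did not pass. H2-DMb2, the second beta chain of the exchanger, differed by -1.20 and did not pass, yet rose by 1.94 with irradiation in the knockout. Beyond H2-Eb1, Btnl2, a butyrophilin-like gene, was lower by -2.25 (limma adjusted p = 0.0412). Before H2-Oa, H2-Ke6 (0.54), Slc39a7 (-0.29) and Rxrb (0.73) did not pass. Genes that were called lower and genes that did not pass were interspersed along the region. From H2-Oa to H2-Eb1, H2-Oa (-1.73), H2-DMb2 (-1.20), Tap2 (-0.99) and H2-Ob (-0.62) did not pass but lay below 0, unlike Brd2. Cd74 and Ciita lie on other chromosomes. The part of chromosomal position in these differences was not tested.

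**Figure D4:**
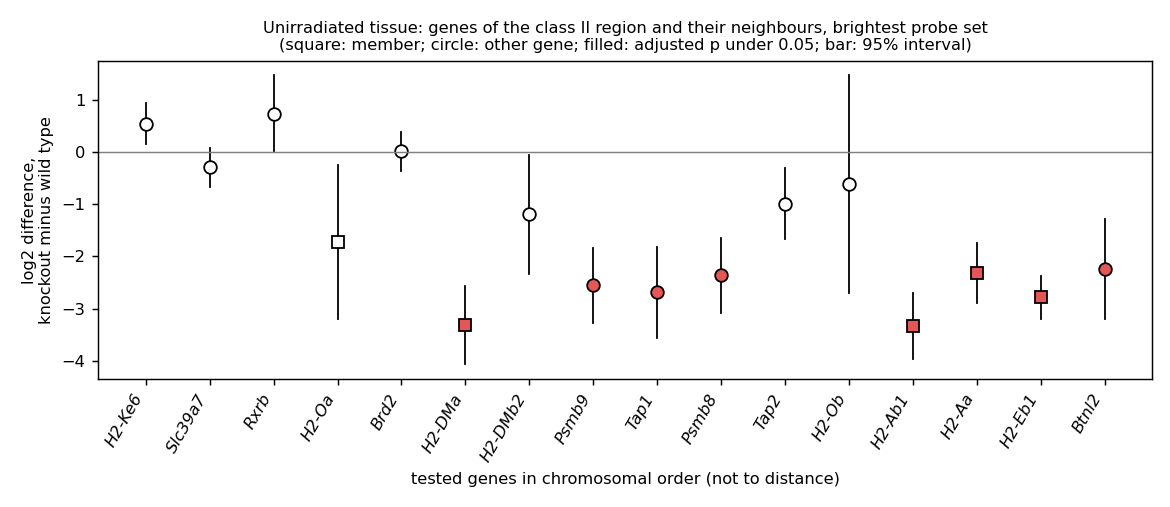
Log2 difference between unirradiated knockout and wild type with 95% intervals, for genes in their order along the class II region of chromosome 17; positions are ranks, not distances. H2-Aa, H2-Ab1, H2-Eb1, H2-DMa, Psmb9, Tap1 and Psmb8 lie between -3.33 and -2.32, while Brd2 (0.01) and Slc39a7 (-0.29) lie near 0.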

How the data were processed

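The authors used MAS5, per the submitters' processing notes, without a version named in these sources. What they deposited are log2 signals, as the numbers themselves show: on the linear scale the mean trimmed by 2% was 500.0 on every array. They were used as deposited. Members and lists were chosen with earlier results of these data known. Probe sets were named from the platform annotation, with symbols updated by gene ID. Each of 25883 non-control probe sets was fitted by limma 3.58.1 (R 4.3.3) as 4 group means over 10 arrays, with 6 residual degrees of freedom, a variance trend and Benjamini-Hochberg adjustment over all of them at 0.05. A gene in a list stands for its brightest probe set. The rule for naming listed genes was smallest p for genotype after irradiation, up to 4 a list, plus Irf1, Ifng, H2-Ea and Rfx genes. Not all genes picked by this rule are named. None is named from the lists of lysosomal proteases, dendritic cells, B cells or colonic epithelium. The following were named after their values were seen: Cd274, Cd40, Socs1, Cd163, Mertk, Cx3cr1, Cd2, Cd8a, Cxcl11 and the regional neighbours. On simulated data for genotype without irradiation (25883 probe sets, 200 changed), the share called was 23.9% for changes of 1 log2 unit, 68.7% for 2 and 89.4% for 3, and 4 calls were false. Alternatives were quantile normalization, pseudocounts, other filters, no trend, array weights, 1 value per gene, a replicate block, only the groups compared, sex as a covariate, and leaving out each array.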

Additional observations from a re-analysis of the deposited data

Results flagged for a closer look

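The irradiation effect differed between the genotypes, by the interaction test of limma, for 10 member probe sets. Each difference (knockout effect minus wild-type effect, log2) was positive. It was 2.24, 3.07 and 2.99 for 3 probe sets of H2-Aa, 3.13, 3.95 and 4.20 for the 3 of H2-Ab1, 2.59 for H2-Eb1, 2.60 for Cd74, 3.25 for H2-DMa and 2.96 for the first probe set of Ciita. In each case the wild type did not change past the threshold and the knockout rose. The same unirradiated knockout arrays enter all 10 values.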

How the results depend on the processing

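For the member probe sets, all of the 336 values recomputed for irradiation in wild type, and likewise for genotype after irradiation, kept their side of the threshold, as did 329 for genotype without irradiation, 328 for irradiation in the knockout and 271 for the interaction, where 47 others no longer passed. No direction reversed for a called value. With 1 probe set per gene, or with all probe sets of a gene averaged, the members called numbered 7 for irradiation in the knockout, 6 for genotype without irradiation and 5 for the interaction. By the brightest probe set 7, 6 and 6 genes had passed, and Ciita was the one lost from the interaction (adjusted p = 0.0503, and 0.1731 when averaged). Over all genes the counts were 3028 and 2944 in wild type, 2957 and 2982 in the knockout, 154 and 154 for genotype without irradiation, and 26 and 25 for the interaction. Without the trend, 5 members passed the interaction, and over all probe sets 181 passed for genotype and 12 for the interaction. With the sex pattern as a covariate 4 members passed the interaction, and over all probe sets 43 passed for irradiation in wild type, 2830 in the knockout, 1 for genotype after irradiation and 11 for the interaction. Quantile normalization, a pseudocount of 16 and one of 64 each gave 1 for genotype after irradiation, where 0 passed. The sex covariate was estimated within the irradiated knockout group alone, from its 1 female-pattern array, and then applied to irradiated wild type. The cause of these moves was not tested. Leaving out 1 array gave 5 to 10 members for the interaction, 12 to 14 for irradiation in the knockout and 11 to 12 for genotype without irradiation. Over all probe sets it gave 23 to 72, 1815 to 6198 and 101 to 450 for these, 1986 to 5675 for irradiation in wild type and 0 to 10 for genotype after irradiation. Where 1 array of a group remained, it was assumed to vary like the others.

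Whether replicate numbers pair the samples could not be settled. Deviations from group means correlated at -0.174 to 0.152 for the 13 same-numbered pairs and at -0.235 to 0.206 for differently numbered ones. In a group of 2 arrays these deviations are mirror images, so their correlations come with opposite signs and cannot show pairing. With the number as a replicate block, 5 members passed the interaction, and over all probe sets 3012 passed for irradiation in wild type, 154 for genotype without irradiation and 13 for the interaction. Dim signals limit H2-Oa and the third Ciita probe set.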
